A study of Danio rerio with 4 samples.

Results

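The genes described here are 31 DNA damage checkpoint and repair genes of the zebrafish (*Danio rerio*), chosen by name and read from a count table of 15171 RefSeq transcript rows. Of the 31, 27 had a row, 1 for each gene, and all 27 passed the count filter and were tested. No row was matched for *atm*, *atr*, *rad50* and *blm*, for which the RefSeq table used lists 0 curated mRNA accessions, whereas the count table held 14742 curated mRNA rows and 429 non-coding RNA rows. The table gives uracil DNA glycosylase under the symbol *unga*, which carries *ung* as a synonym.

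The libraries came from whole larvae at 5 days post fertilization (120 hours), each made from a pool of 10 larvae and depleted of ribosomal RNA. The mutant group held 2 pools homozygous for the hi272 allele of *uhrf1* and sorted by phenotype. The sibling group held 2 pools of phenotypically normal larvae that mixed wild-type and heterozygous genotypes, so the comparison group also carries the allele in part. The larvae came from a pair of clutches, which the labels do not tie to libraries. The spread behind each p-value is therefore that between pools of larvae, whatever their clutch.

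Cells watch their DNA through checkpoint kinases, which sense breaks and stalled replication forks and hold the cell cycle while repair proceeds. Breaks are mended by homologous recombination, which copies the sister chromatid, or by end joining, which ligates the ends directly. Mismatch repair corrects copying errors, base excision repair replaces damaged bases, nucleotide excision repair cuts out bulky lesions, and the Fanconi anaemia pathway deals with crosslinks between strands. Uhrf1 binds hemimethylated DNA behind the replication fork and recruits the maintenance methyltransferase Dnmt1, and the comparison asks how expression differs in larvae homozygous for a mutant allele.

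Counts assigned to genes ranged from 2996676 in sibling 2 to 9100665 in mutant 1. The summed counts of a member over the 4 libraries ran from 62 to 1589, and precision differs between members accordingly. Levels below are CPM, the counts scaled to the library's total after TMM, and are compared between libraries for a gene and not between genes. Fold changes are given as the log2 ratio of mutant to sibling ± its standard error, from edgeR's quasi-likelihood test fitted to 2 libraries a group. A gene is called changed when its p, adjusted by Benjamini-Hochberg over all 12786 rows tested, is below 0.05. *uhrf1* itself overlapped between the groups (21.4 and 46.8 CPM in siblings, 33.3 and 24.2 CPM in mutants) and does not check the labels, so "mutant" means a library so labelled. All 18 marker genes of organs that a whole larva should hold had counts. In pooled whole larvae, a change in the number of cells of a type and a change in RNA per cell cannot be told apart.

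Of the 27 members, *msh6* rose, the other 26 did not pass, and none fell. That is 3.70% of the members called higher, beside 4.58% of all rows tested, and 0 called lower, beside 3.79% of all rows, so the share of calls was near the background (8.37% of all rows in either direction). With DESeq2 and with limma-voom the called member was also *msh6*, and 9 members had an unadjusted edgeR p under 0.05 (33.3% of members and 23.3% of all rows). The median log2 fold change of the members was 0.46, beside 0.0036 for all rows. Fold changes were above 0 for 19 members and below 0 for 8, and above 0 for 50.3% of all rows. Both mutants lay above both siblings for 12 members (44.4%, beside 28.0% of all rows) and below both for 3 (11.1%, beside 26.9%), and the groups overlapped for 12.

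**Figure D1:**
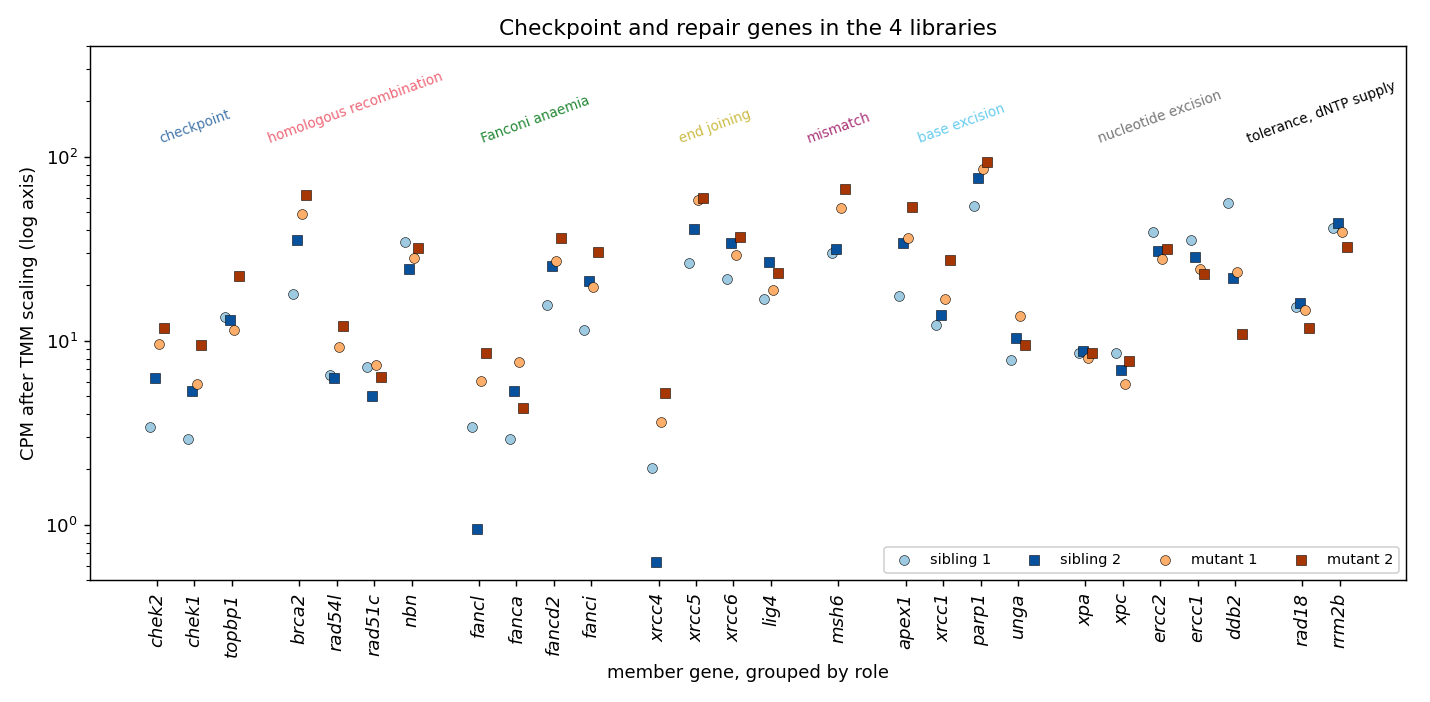
CPM after TMM scaling (vertical log axis) of the 27 members with a row, grouped by role, with 1 point for each of the 4 libraries. *msh6* stands higher in both mutants than in both siblings, while *ddb2* runs from 56.4 CPM in sibling 1 to 10.9 CPM in mutant 2.

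Directions by role were as follows. All 3 checkpoint genes measured, all 4 recombination genes, all 4 Fanconi genes, the mismatch gene and all 4 base excision genes had fold changes above 0, as had 3 of 4 end-joining genes. All 5 nucleotide excision genes had fold changes below 0, and so had *rad18* and *rrm2b*. Median log2 fold changes were 0.87 for checkpoint genes, 0.43 for homologous recombination, 0.63 for the Fanconi genes, 0.54 for end joining, 0.60 for base excision and -0.24 for nucleotide excision. These are medians over 3 to 5 genes, and the difference between roles was not tested. Other genes of these pathways did not all share the sign of the members: 9 of 12 further nucleotide excision genes tested were above 0, with a median of 0.24. Of 13 further base excision genes 9 were above 0, with a median of 0.027. Further genes above 0 were 11 of 12 in recombination (median 0.80), 8 of 11 in checkpoint (0.51) and 3 of 4 in mismatch (0.43). They were 4 of 5 in end joining (0.25) and 5 of 9 in the Fanconi pathway (0.21). Beside *rad18* and *rrm2b*, 5 of 11 further genes of damage tolerance and nucleotide supply were above 0, with a median of -0.099. With 1 library left out, the members' medians ran from 0.46 to 1.33 for checkpoint genes, 0.31 to 0.54 for recombination and 0.25 to 1.08 for the Fanconi genes. They ran from 0.24 to 0.83 for end joining, 0.29 to 0.78 for base excision and -0.39 to -0.09 for nucleotide excision.

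**Figure D2:**
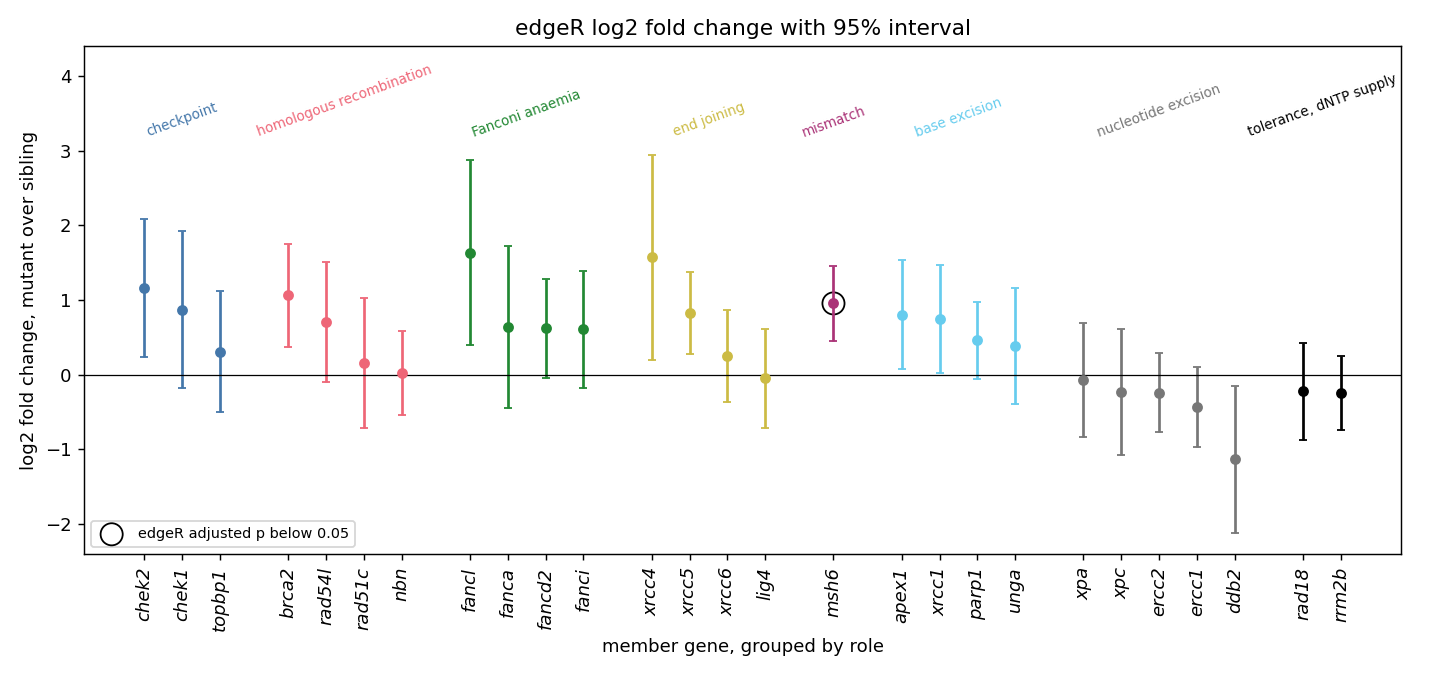
Log2 fold change of each member, mutant over sibling, from edgeR with its 95% interval (vertical bars), grouped by role. The ring marks the called gene *msh6*, and all 5 nucleotide excision genes, *rad18* and *rrm2b* lie below 0.

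Mismatch repair was the role with a call. Msh6 is a subunit of the complex that recognizes single-base mismatches after replication. *msh6* (NM_182860) measured 29.99 and 31.4 CPM in sibling pools 1 and 2, against 52.6 and 67.0 CPM in mutant pools 1 and 2. Both mutants were above both siblings, and the siblings differed little from each other. The log2 ratio came to 0.95 ± 0.23 (adjusted p = 0.0289), a 1.94-fold rise. Without mutant 2 it was 0.78 and did not pass (adjusted p = 0.198).

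Among the checkpoint genes, none passed. Chek2 is the effector kinase downstream of Atm and Chek1 the one downstream of Atr, which Topbp1 activates. *chek2* measured 3.38 and 6.29 CPM in sibling pools 1 and 2, against 9.58 and 11.8 CPM in mutant pools 1 and 2. The groups did not overlap, but the spread between siblings was wide, and the counts were low (15 and 20 in the siblings, 87 and 41 in the mutants). Its log2 ratio came to 1.16 ± 0.42 (adjusted p = 0.123). *chek1* went from 2.93 and 5.35 to 5.83 and 9.49 CPM, with mutant 1 just above sibling 2 (log2 ratio 0.87 ± 0.47, adjusted p = 0.308). *topbp1* was at 13.5 and 12.9 CPM in siblings, 11.4 CPM in mutant 1 and 22.4 CPM in mutant 2. Its log2 fold change of 0.31 ± 0.36 rested on mutant 2 and was -0.21 without it.

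Among the homologous recombination genes, *brca2* came closest to a call. Brca2 mediates the strand exchange step of recombination. *brca2* measured 18.04 and 35.2 CPM in sibling pools 1 and 2, against 48.5 and 61.8 CPM in mutant pools 1 and 2. Both mutants exceeded both siblings, and sibling 1 was far below sibling 2. The log2 ratio came to 1.06 ± 0.31 (adjusted p = 0.0647), which passed without sibling 2 (adjusted p = 0.00116) and with no count filter (adjusted p = 0.0333). *rad54l*, a motor protein that acts in strand invasion, went from 6.54 and 6.29 to 9.25 and 12.1 CPM (log2 ratio 0.71 ± 0.36, adjusted p = 0.275). *nbn*, a subunit of the break-sensing complex with Rad50, overlapped between the groups, with 34.3 and 24.5 CPM in siblings against 28.3 and 31.9 CPM in mutants. Its 95% interval of log2 fold change ran from -0.54 to 0.58, which leaves out a 2-fold change either way. *rad51c*, which assists strand exchange, also overlapped, with 7.22 and 5.03 CPM in siblings against 7.37 and 6.33 CPM in mutants.

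None of the Fanconi genes passed. Fancl is the ubiquitin ligase of the pathway and acts on the pair Fancd2 and Fanci, while Fanca belongs to the core complex that holds the ligase. *fancl* measured 3.38 and 0.943 CPM in sibling pools 1 and 2, against 6.05 and 8.63 CPM in mutant pools 1 and 2. Both mutants were higher, but sibling 2 held 3 counts and sibling 1 held 15. The log2 ratio came to 1.63 ± 0.56 (adjusted p = 0.106), with 2.89 without sibling 1 (adjusted p = 0.0140) and 1.07 without sibling 2. The substrate pair had nearly equal fold changes, 0.62 ± 0.30 (adjusted p = 0.245) for *fancd2* and 0.61 ± 0.35 (adjusted p = 0.332) for *fanci*. *fancd2* measured 15.6 and 25.5 CPM in siblings against 27.1 and 35.9 CPM in mutants, and *fanci* measured 11.5 and 21.1 CPM in siblings against 19.6 and 30.2 CPM in mutants. In both genes sibling 1 was lowest and mutant 2 highest. *fanca* overlapped between the groups, and mutant 1 at 7.70 CPM was its highest library.

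Among the end-joining genes, partners within a complex had unlike fold changes. Xrcc5 and Xrcc6 form the Ku ring that caps broken ends, and Xrcc4 holds the ligase Lig4 at the join. *xrcc5* measured 26.4 and 40.2 CPM in sibling pools 1 and 2, against 57.9 and 59.5 CPM in mutant pools 1 and 2. The mutants were close to each other and above both siblings. Its log2 ratio came to 0.83 ± 0.25 (adjusted p = 0.0711), which passed with no count filter (adjusted p = 0.0493). It was 1.15 without sibling 2, and over the alternatives it ran down to 0.54. *xrcc6* overlapped, with 21.6 and 34.0 CPM in siblings against 29.4 and 36.5 CPM in mutants (log2 ratio 0.25 ± 0.28). *xrcc4* was the sparsest member, with 9 and 2 counts in siblings and 33 and 18 in mutants (2.03, 0.629, 3.63 and 5.18 CPM). Both mutants were higher, and the log2 fold change of 1.57 ± 0.62 (adjusted p = 0.155) was 2.71 without sibling 1 and 1.06 without sibling 2. *lig4* overlapped, with 16.9 and 26.7 CPM in siblings against 18.9 and 23.3 CPM in mutants, with a 95% interval from -0.71 to 0.61. The differences between partners were not tested.

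None of the base excision and strand-break genes passed, and 3 of 4 had both mutants above both siblings, as had 28.0% of all rows. Apex1 is the endonuclease that cuts at abasic sites, Xrcc1 the scaffold for ligation, Parp1 the nick sensor that makes poly(ADP-ribose), and Unga the glycosylase that removes uracil. *apex1* went from 17.6 and 34.0 CPM in siblings to 36.2 and 53.5 CPM in mutants. Sibling 2 lay just below mutant 1, and sibling 1 was lowest. The log2 ratio came to 0.80 ± 0.33 (adjusted p = 0.172). It was 1.33 without sibling 2 and 1.05 without mutant 1, but 0.51 without mutant 2 and 0.38 without sibling 1. *xrcc1* went from 12.2 and 13.8 to 16.8 and 27.6 CPM, most of the difference being in mutant 2 (log2 ratio 0.75 ± 0.32, adjusted p = 0.197; 0.38 without mutant 2). *parp1* went from 53.7 and 77.0 to 86.1 and 93.2 CPM (log2 ratio 0.46 ± 0.23, adjusted p = 0.268). *unga* overlapped between the groups (log2 ratio 0.38 ± 0.35). Its paralog *ungb* had no row matched, and how the counting treated reads that both could share is not known.

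The nucleotide excision genes lay on the other side of 0, with none past the threshold. Ddb2 and Xpc find the lesion, Xpa verifies it, Ercc2 is a helicase of the opening complex TFIIH, and Ercc1 is a subunit of the nuclease that cuts on the 5′ side. *ddb2* measured 56.4 and 22.0 CPM in sibling pools 1 and 2, against 23.8 and 10.9 CPM in mutant pools 1 and 2. Within each group the first library was more than 2 times the second, and sibling 2 was below mutant 1. The log2 ratio came to -1.13 ± 0.44 (adjusted p = 0.154), and it passed without sibling 2 (-1.64, adjusted p = 0.00153) and without mutant 1 (-1.87, adjusted p = 0.0439), but was -0.29 without sibling 1 and -0.74 without mutant 2.

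*ercc1* went from 35.2 and 28.6 CPM in siblings to 24.4 and 23.0 CPM in mutants. Both mutants were below both siblings, by a log2 fold change of -0.43 ± 0.24 (adjusted p = 0.322). *ercc2* measured 38.8 and 30.8 CPM in siblings against 27.8 and 31.6 CPM in mutants. *xpc* measured 8.57 and 6.92 CPM in siblings against 5.83 and 7.76 CPM in mutants. *xpa* was the most even, with 8.57 and 8.80 CPM in siblings against 8.03 and 8.63 CPM in mutants, with a 95% interval from -0.83 to 0.70. The groups overlapped for *ercc2*, *xpc* and *xpa*. For all 5 nucleotide excision genes the 95% interval lay below a 2-fold rise, as it did for 11 of the 27 members and 9239 of all 12786 rows. A 2-fold fall lay within the interval for *ddb2* (lower end -2.12) and *xpc* (lower end -1.08). For 3 of the 5 genes the interval left out a 2-fold change either way. For 15 of the members that did not pass, a 2-fold rise lay within the 95% interval.

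Of the remaining members, Rad18 is the ubiquitin ligase that marks the sliding clamp for damage-tolerant synthesis, and Rrm2b is a small subunit of ribonucleotide reductase, which makes deoxynucleotides. *rad18* measured 15.3 and 16.0 CPM in siblings against 14.7 and 11.8 CPM in mutants. *rrm2b* measured 40.8 and 43.7 CPM in siblings against 38.7 and 32.2 CPM in mutants. For both genes both mutants lay below both siblings, with log2 ratios of -0.22 ± 0.29 (adjusted p = 0.702) and -0.24 ± 0.22 (adjusted p = 0.560). The RefSeq table gives *rrm2b* and *rrm2l* the shared synonym *rrm2*, so which of them is the counterpart of the damage-induced mammalian gene is not settled by the names. *rrm2l*, named here for that reason, went from 7.22 and 13.8 to 24.0 and 17.3 CPM (log2 ratio 1.02 ± 0.36, adjusted p = 0.119), and the large subunit gene *rrm1* rose (log2 ratio 1.06 ± 0.28, adjusted p = 0.0466), a call lost without sibling 1 or mutant 2, with limma-voom and with at least 50 counts in 2 libraries.

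The libraries within a group differed, though not in the same direction for all members. Mutant 2 was above mutant 1 for 20 of the 27 members, beside 6350 of all 12786 rows. Sibling 2 was above sibling 1 for 17 members, beside 6418 of all rows. That held for 1 of 4 recombination genes and 1 of 5 nucleotide excision genes. Of the 27 members, mutant 2 was the highest library for 15 and sibling 1 the lowest for 14. Over all rows tested, mutant 2 was highest for 31.8% and sibling 1 lowest for 29.5%. Summed over the 27 members, the level was 511 and 574 CPM in siblings 1 and 2 and 639 and 736 CPM in mutants 1 and 2. Summed over the 5 nucleotide excision members, it was 147, 97.2, 89.9 and 82.0 CPM in the same order, with sibling 1 highest. Of these sums, *ddb2* alone made up 56.4, 22.0, 23.8 and 10.9 CPM. Summed levels of markers of dividing cells had the same order of libraries as the sum over all members. So had those of the 77 further repair genes and the 13 leukocyte markers described below. Those of the damage-induced genes and the exocrine pancreas markers described below did not. Of 37 S phase genes tested, 12 rose with edgeR, 12 with DESeq2 and 11 with limma-voom, and none fell with any of these tools. Their summed level was 587 and 914 CPM in siblings and 1384 and 1724 CPM in mutants. Of 22 mitosis genes, 3 rose with edgeR, 4 with DESeq2 and 3 with limma-voom, and none fell with any of these tools. Their summed level was 391 and 830 CPM in siblings and 948 and 1306 CPM in mutants. None of these markers was at 0 in all libraries. Their part in the members' differences was not tested. Without mutant 2, 3 S phase genes and 0 mitosis genes were called higher, and without sibling 2, 19 and 16 were.

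**Figure D3:**
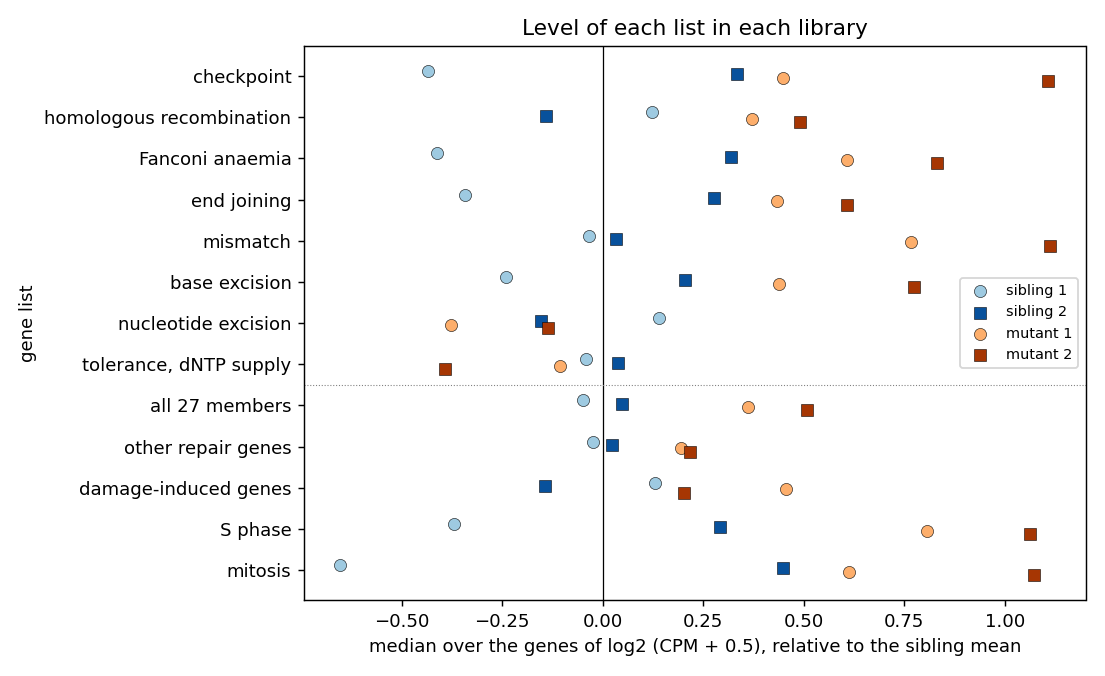
Median over the genes of each list of log2 (CPM + 0.5) relative to the mean of the siblings (horizontal axis), with 1 point for each library. Sibling 1 is lowest and mutant 2 highest for the checkpoint, Fanconi, end-joining, mismatch and base excision members and for S phase and mitosis genes, while mutant 1 is lowest for nucleotide excision. For homologous recombination sibling 2 is lowest.

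Of 128 further symbols of the same pathways, 85 had a row and 77 were tested. Of these, 8 rose with edgeR (10.4%, beside 4.58% of all rows). At an unadjusted edgeR p under 0.05, 19 were higher and 2 lower, beside 23.3% of all rows in either direction. DESeq2 called 5 higher and limma-voom 6, and none fell with any of these tools. The median log2 fold change of the 77 was 0.27. The largest rise was that of *ube2t*, the ubiquitin-conjugating enzyme that works with Fancl, from 1.80 and 2.83 CPM in siblings to 13.8 and 12.7 CPM in mutants. Both mutants were far above both siblings (log2 ratio 2.54 ± 0.42, adjusted p = 0.00448). *lig1*, the ligase that seals nicks at replication forks, rose from 2.48 and 4.09 to 11.6 and 18.4 CPM (log2 ratio 2.19 ± 0.43, adjusted p = 0.0122).

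Other calls included *rrm1*, the recombination genes *rad51b*, *recql* and *rpa1*, and the glycosylase gene *neil3*. *rpa1*, the large subunit of the protein that coats single-stranded DNA, went from 51.0 and 59.11 to 102 and 108 CPM (log2 ratio 0.93 ± 0.21). *rad51b*, a partner of Rad51c, rose by 1.64 ± 0.41, the helicase gene *recql* by 0.95 ± 0.23 and *neil3* by 1.38 ± 0.34, as log2 ratios. The rise of *ube2t* passed in every alternative that tested it. Without mutant 2 the calls of *rad51b*, *recql*, *rpa1*, *neil3*, *lig1* and *rrm1* were lost. Those of *rad51b* and *neil3* were also lost without sibling 1, without mutant 1 and with DESeq2, that of *rad51b* with limma-voom, that of *recql* with DESeq2 and that of *rpa1* without mutant 1. By pathway, 3 of 12 recombination genes and 2 of 13 base excision genes were called. So were 1 of 9 Fanconi genes, 1 of 4 mismatch genes and 1 of 11 tolerance and nucleotide supply genes. None of 12 nucleotide excision genes, 11 checkpoint genes and 5 end-joining genes was called with edgeR, DESeq2 or limma-voom, and before adjustment 1, 4 and 0 respectively were under 0.05 with edgeR.

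Partners of members outside the rule were set beside them, chosen after values were seen. *lig3*, the ligase bound by Xrcc1, was nearly level across all 4 libraries (87.7, 87.1, 87.3 and 88.9 CPM). *parp2* and *parp3*, relatives of *parp1*, had log2 fold changes of 1.01 ± 0.29 (adjusted p = 0.0646) and 0.73 ± 0.22 (adjusted p = 0.0736). In nucleotide excision repair, *ddb1*, *rad23b*, *ercc4* and *ercc3*, partners of *ddb2*, *xpc*, *ercc1* and *ercc2*, had log2 fold changes of 0.41 ± 0.26, 0.67 ± 0.23, 0.30 ± 0.28 and 0.12 ± 0.23, none past the threshold. The other Rad23 genes, *rad23aa* and *rad23ab*, were at 0.43 ± 0.36 and -0.09 ± 0.27, the latter on the same side of 0 as *xpc*. Partners below 0 also included *rad9a* (-0.56 ± 0.39) and *rad1* (-0.29 ± 0.30) beside *topbp1*, and *polb* (-0.06 ± 0.24) beside *xrcc1*. Beside *rad18*, *ube2b* was at -0.60 ± 0.24 and *ube2a* at 0.485 ± 0.20. None of these passed the threshold.

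In human cells *DDB2*, *XPC* and *RRM2B* are known to be induced by DNA damage. None of the zebrafish genes of those names rose. In a list of genes named here as damage-induced, 26.7% of those tested were called higher, beside 4.58% of all rows. Of 30 genes of that list tested, 8 rose and *gadd45gb.1* fell, the latter not without mutant 2, with a median log2 fold change of 0.33. *mdm2*, a ubiquitin ligase gene, rose from 74.4 and 58.8 to 148 and 140 CPM (log2 ratio 1.11 ± 0.22, adjusted p = 0.0114). *pmaip1*, a pro-apoptotic gene, rose from 7.22 and 8.49 to 36.4 and 48.6 CPM. *casp8* and *rps27l* had the other lowest p values of the list. *cdkn1a*, the cell cycle inhibitor gene, overlapped between the groups, with 92.0 and 84.0 CPM in siblings against 105 and 91.7 CPM in mutants (log2 ratio 0.17 ± 0.21, adjusted p = 0.680). The part of DNA damage in these values was not tested. Rows at 0 in all libraries made up 47.6% of rows whose symbol had more than 1 row and 1.61% of rows whose symbol had 1, and all 27 members had 1 row.

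Markers of other cell types also differed between the groups. Of 13 leukocyte markers tested, 4 rose, led by *mmp9*, *mpx* and *mpeg1.2*, and 3 fell (1 without mutant 1 and 1 without mutant 2), with a median log2 fold change of 0.013. Those that fell were *coro1a* (-1.62), *mpeg1.1* (-1.58) and *rag1* (-2.32), as log2 ratios. The summed level of the list was 163 and 168 CPM in siblings and 430 and 443 CPM in mutants, of which *mmp9* made up 17.1 and 25.5 CPM in siblings and 204 and 189 CPM in mutants. Of 17 exocrine pancreas markers tested, 17 fell, led by *cpa4*, *cpa1* and *cela1.3* (the last not called with DESeq2), from a summed 30574 and 14709 CPM to 2537 and 352 CPM. None of the markers with a row was at 0 in all libraries. The part of these cells in the members' values was not tested.

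**Figure D4:**
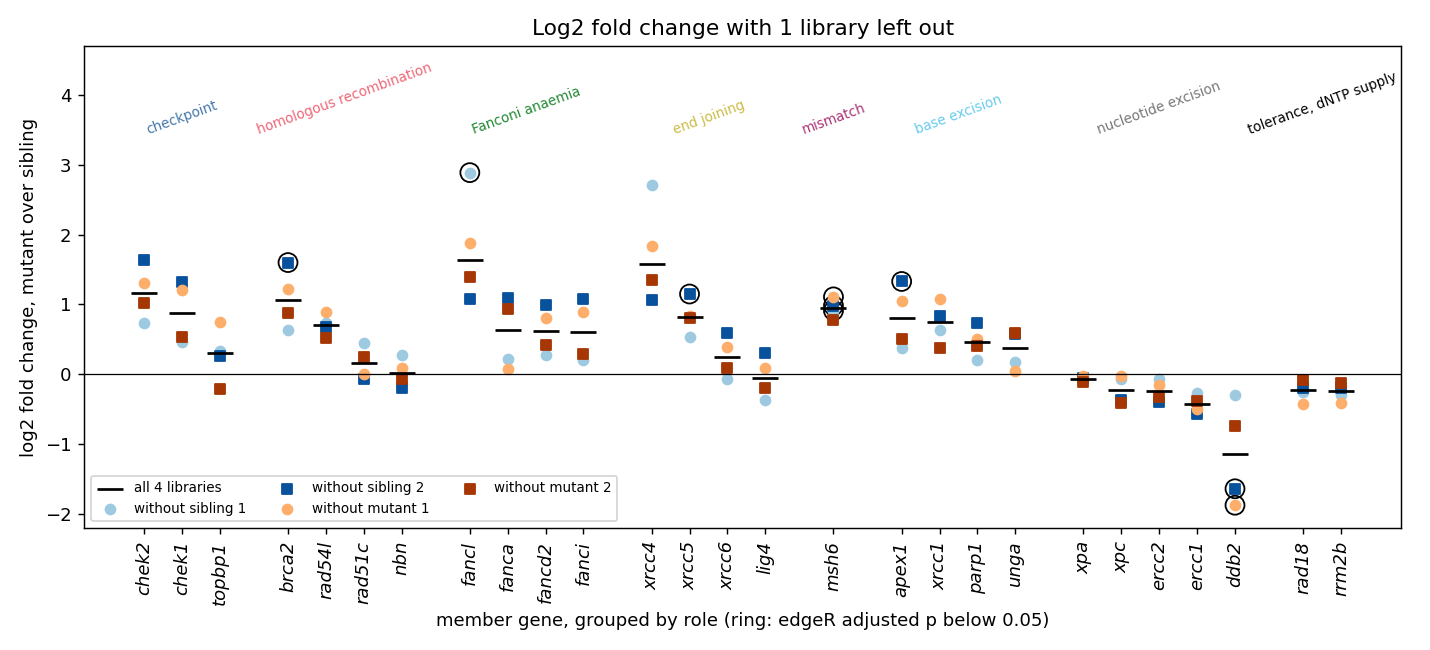
Log2 fold change of each member, mutant over sibling, with all 4 libraries (black bars) and with 1 library left out (points), with rings where the edgeR adjusted p was below 0.05. *msh6* passed with any library but mutant 2 left out, and *ddb2* ran from -1.87 to -0.29.

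Leaving out libraries moved the member calls. Without sibling 2, *apex1*, *brca2*, *msh6* and *xrcc5* were higher and *ddb2* was lower. Without sibling 1, *fancl* and *msh6* were higher. Without mutant 1, *msh6* was higher and *ddb2* lower, and without mutant 2 no member passed. The median log2 fold change of the 27 stayed above 0 in each case, from 0.28 when sibling 1 was left out to 0.68 when sibling 2 was.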

How the data were processed

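RNA of 4 pools of zebrafish larvae was sequenced, and the authors deposited raw counts per RefSeq accession. The submitters' processing notes list DESeq2, HTSeq, Bowtie2 2.1.0 and the build GRCz10, without saying which did what. Annotation, strand setting and treatment of multiply mapping reads: not given in the sources used here. Overlapping or antisense genes therefore cannot be told apart. Of 15171 rows, 14472 were given a symbol from RefSeq names of assembly GRCz12tu, none of whose coordinates were used, and a symbol was read from its row with most counts.

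The sample titles gave groups and replicate numbers. Counts were fitted in R 4.3.3 with edgeR 4.0.16 (filterByExpr, TMM, glmQLFit and glmQLFTest, no block) over the whole table, with Benjamini-Hochberg adjustment at 0.05. The standard error is the size of the log2 ratio over the square root of F. With 2 against 2, the smallest two-sided p of an exact permutation test is 0.333. The fit was tested on simulated counts, drawn independently for each library with the dispersions of the same fit. Such counts cannot show how the fit handles differences that many genes of a library share. One count was worth 0.201, 0.334, 0.110 and 0.303 CPM in siblings 1 and 2 and mutants 1 and 2, before TMM. Replicates differed beyond sampling noise (chi-square per degree of freedom 15.7 for siblings and 13.6 for mutants).

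The members and lists were chosen with earlier results of these data known. All members are named. Beside them the text names *uhrf1*, *mdm2*, *cdkn1a*, other repair genes past the threshold (up to 12) and up to 3 genes by lowest p from each context list. Results for some genes are not reported here. Alternatives were DESeq2 1.42.0, limma-voom (limma 3.58.1), RLE or library-total scaling, no count filter or at least 50 counts in 2 libraries, the replicate number as a block, each library left out, and rows of a symbol summed. The repeat counts were not used here.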

Additional observations from a re-analysis of the deposited data

How the results depend on the processing

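With DESeq2, limma-voom, RLE scaling, library totals, at least 50 counts in 2 libraries and summed rows, *msh6* was the 1 member called. With no count filter, 3 members rose, and 1 other repair gene was lower. DESeq2 called 5 other repair genes higher, as did at least 50 counts in 2 libraries, which kept 17 members. Library totals moved the median of all rows from 0.0036 to 0.080, and *lig4* (0.0094) and *xpa* (0.012) changed sign.

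Same-numbered libraries deviated together (Pearson r = 0.24 over genes), but 2 pairs do not settle a pairing and the labels give none. With the replicate block, 6 members were higher and 1 lower (*apex1*, *brca2*, *chek2*, *fancl*, *msh6* and *xrcc5*, and *ddb2*), beside 1366 and 1165 rows in all, 17 and 2 other repair genes, 23 S phase and 17 mitosis genes higher and 4 damage-induced genes lower.

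With 1 library left out, members called higher ranged from 0 to 4, lower from 0 to 1, all rows higher from 333 to 805 and lower from 243 to 754, and other repair genes higher from 2 to 11 and lower from 0 to 2. S phase genes higher ranged from 3 to 19, mitosis genes from 0 to 16, damage-induced genes lower from 0 to 1 and leukocyte markers lower from 1 to 3. Signs turned for *lig4* (-0.36 without sibling 1 to 0.30 without sibling 2, and 0.09 without mutant 1), *nbn* (-0.20 without sibling 2 to 0.28 without sibling 1, and -0.06 without mutant 2), *rad51c* (-0.060 without sibling 2 to 0.45 without sibling 1), *topbp1* (-0.21 without mutant 2 to 0.74 without mutant 1) and *xrcc6* (-0.063 without sibling 1 to 0.59 without sibling 2), and the cause was not tested. Counts of few reads (*xrcc4*, *fancl*, *chek1*, *fanca*) limit precision most.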
